A study of Mus musculus with 10 samples.

Results

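The comparison set the 2 libraries named Usp17le OE-Dux KD against the 2 libraries named Dux KD, 4 of the 10 libraries of a study of mouse embryonic stem cells. Members were taken by label: cells that already overexpressed Usp17le and then received a short hairpin RNA against Dux, and cells that received the same hairpin alone. The Dux KD cells were transfected with the hairpin and selected with puromycin. Both groups thus carry the hairpin, and they differ in the Usp17le plasmid and in the order and number of transfections. The labels give the line as J1, the genotype by these names and no further allele, a line with a Zscan4-tdTomato reporter, whereas the methods name another line, E3, for overexpression. Other groups of the study were Usp17le OE, Dux KD-Usp17le OE (hairpin first, then plasmid) and untransfected WT. By their labels none of the 5 groups is an empty-plasmid or control-hairpin group, and how many clones each group stands for is not given in the sources used here. Whether the libraries of a group stem from separate cultures is not stated. A p-value gauges the spread within groups, pooled over all 5 groups of 2 and moderated across genes, and this spread may be technical only.

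A small share of mouse embryonic stem cells passes through a state that resembles the 2-cell embryo, in which the homeobox transcription factor DUX switches on genes such as Zscan4, Tcstv and Zfp352 (together the 2C genes). Usp17l genes encode deubiquitinases, enzymes that remove ubiquitin from proteins, and are themselves transcribed in this state. Ubiquitin on histone H2A is placed by Polycomb complexes and goes with silencing. The comparison asks what Usp17le overexpression leaves in the transcriptome once the hairpin is there. These are bulk libraries, so a higher share of 2C-like cells and more RNA per cell cannot be told apart.

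Each gene was measured as a length-corrected abundance (TPM: reads per gene length, as a share of a fixed total in each library). Libraries were put on a common scale by the median of their ratios to the geometric mean library, and the result is called scaled TPM. Log2 changes are Usp17le OE-Dux KD minus Dux KD on log2(scaled TPM + 0.1) and are given with their SE, and a gene was called at an adjusted p under 0.05 by limma. Of 24370 genes in the table, 14682 reached 0.5 scaled TPM in at least 2 of the 10 libraries and were tested. Depth was 32188285 to 50457228 reads a library, and Pearson's r between libraries of one group, taken over genes, was 0.984 to 0.987. All 10 embryonic stem cell markers were above 0.5 scaled TPM in each library, Pou5f1 among them at 1505 and 1523 in the Usp17le OE-Dux KD libraries, against 1699 and 1669 in those of Dux KD. Of 8 fibroblast markers 3 passed that level in each of the 4 compared libraries. Their summed level over all 8 was 28.1 and 28.3 scaled TPM in Usp17le OE-Dux KD, against 24.2 and 22.2 in Dux KD. Thy1, which passed, had 20.1 and 20.5 against 16.3 and 14.7 (0.39 ± 0.10), while Dcn was at 0 in each of the 4. The ribosomal protein share of TPM was 21.3% and 22.3% in Usp17le OE-Dux KD, against 21.9% and 19.9% in Dux KD.

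Of the genes tested, 5456 were called (37.2%): 2061 were higher (14%) and 3395 lower (23.1%) in Usp17le OE-Dux KD than in Dux KD. This split rests on the scaling. On TPM as deposited, where the median gene shifted by 0.14, 3617 were higher and 1411 lower, so that 71.9% of calls were higher, against 37.8% after scaling. The number of higher genes fell to 1301 without the first and to 1235 without the second Usp17le OE-Dux KD library. Changes over 1 on the log2 scale were mostly rises, with 574 genes higher and 126 lower, and over 2 there were 160 higher and 7 lower. Of those 160 rises, 31 were members of the 2C list, 27 were entries of under 200 bases such as snoRNAs and microRNAs, and 26 were Gm, LOC or Rik entries outside that list.

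Usp17le, the overexpressed gene (chromosome 7, 104768049 to 104777470, protein-coding), stood at 9.11 and 8.98 scaled TPM in Usp17le OE-Dux KD, against 0.447 and 0.389 in Dux KD. Without the hairpin it stood at 30.4 and 35.7 in Usp17le OE, against 2.20 and 0.801 in WT. The rise over Dux KD was 17.7-fold (log2 change 4.14 ± 0.39, adjusted p = 8.45e-05). Reads of the plasmid and of the endogenous gene cannot be told apart in these values. The 4 relatives of Usp17le rose as well, and no library of Usp17le OE-Dux KD overlapped with Dux KD for any of them. Such separation is common with 2 libraries a group: over all genes tested 31.3% were higher and 37.9% lower without overlap. Usp17lb had 11.1 and 12.8 scaled TPM in Usp17le OE-Dux KD, against 0.141 and 0.626 in Dux KD (4.85 ± 0.42, adjusted p = 9.14e-05). For Usp17la the values were 3.87 and 3.60 against 0.0374 and 0.166 (4.32 ± 0.41), for Usp17lc 5.36 and 3.86 against 0.759 and 0.0432 (3.73 ± 0.71) and for Usp17ld 0.945 and 1.79 against 0.0605 and 0.0896 (3.01 ± 0.44). The counting kept uniquely mapped reads only, which lowers these near-identical copies, and the 2 Dux KD libraries differed widely for Usp17lc and Usp17lb.

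Dux, the target of the hairpin (chromosome 10, 58229979 to 58232675, annotated as Duxf3), was measured from few reads, 15 and 16 in Usp17le OE-Dux KD against 4 and 0 in Dux KD. Its level was 0.358 and 0.352 scaled TPM in Usp17le OE-Dux KD, against 0.0978 and 0 in Dux KD, a log2 change of 1.69 ± 0.52 (adjusted p = 0.0269). In cells without a hairpin its level was 2.18 and 1.88 in Usp17le OE, against 0.146 and 0.320 in WT. The call did not survive a pseudocount of 1 (log2 change 0.37), a fit of the compared groups alone, or leaving out the first or the second Usp17le OE-Dux KD library (1.68 and 1.70) or the second Dux KD library (1.20). Dux transcripts in the plasmid-bearing cells thus had the higher values in these libraries, from read counts that leave the size of the difference poorly set. The paper describes the Dux locus as tandem repeats, and the counting kept uniquely mapped reads only, which lowers the counts of such copies.

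The 2C genes were the group with the largest median rise of the 29 lists, as the plot of all list members shows. Of 68 genes listed, 61 were in the table and 42 were tested. Of these, 36 were called higher (85.7%, against 14% of all genes tested) and 6 were not called. By limma 0 were lower (1 at an unadjusted p under 0.05 and 1 by voom), against 23.1% of all genes tested. The median log2 change was 3.22, against -0.02 over all genes tested. Usp17le itself, its relatives Usp17la, Usp17lb, Usp17lc and Usp17ld, and the hairpin target Dux are members of this list. All of them were called higher, so the count and the median are not a readout apart from the manipulated genes. Only 5 of the 42 were at 0.5 scaled TPM or more in both Dux KD libraries and 31 in both Usp17le OE-Dux KD libraries, so most passed the filter through libraries in which they are high. With no filter on low values 50 members could be fitted, 38 were called higher and the median was 2.92. Across the alternatives 31 to 38 members were called higher. The median 2C gene stood at 2.68 and 2.82 scaled TPM in Usp17le OE-Dux KD, against 0.0913 and 0.189 in Dux KD, and at 12.6 and 12.5 in Usp17le OE against 0.489 and 0.935 in WT. The rise therefore started from a lower level under the hairpin and ended below the level of Usp17le OE.

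**Figure D1:**
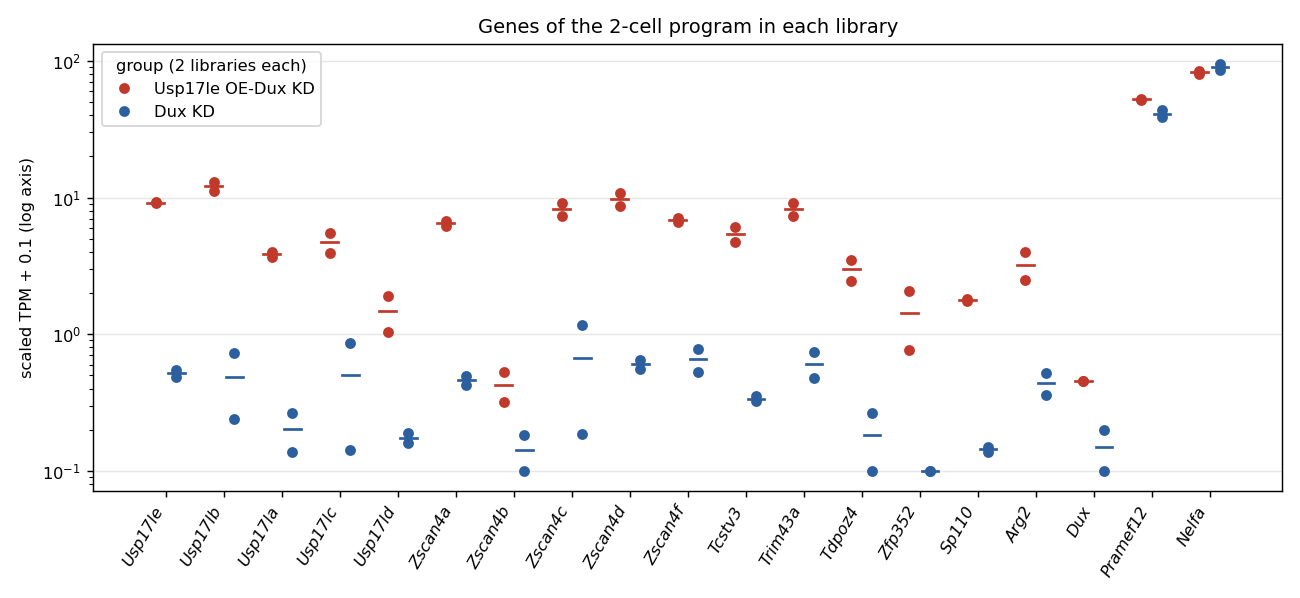
Levels of 19 genes of the 2-cell program, in scaled TPM + 0.1 on a log axis, with 1 point for each library and a bar at the mean of the 2 libraries, for Usp17le OE-Dux KD (left, red) and Dux KD (right, blue). For 18 of the genes both Usp17le OE-Dux KD points lie above both Dux KD points, and Nelfa is the exception. Over all genes tested 31.3% were higher without overlap.

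Zscan4 genes, which encode zinc finger proteins of 2C-like cells active at telomeres, lie together on chromosome 7. Zscan4d (chromosome 7, 11161374 to 11166159) stood at 8.53 and 10.7 scaled TPM in Usp17le OE-Dux KD, against 0.547 and 0.461 in Dux KD (4.0 ± 0.18, adjusted p = 4.22e-07). Zscan4a stood at 6.65 and 6.08 against 0.395 and 0.325 (3.81 ± 0.15), and Zscan4f at 6.51 and 7.01 against 0.433 and 0.682 (3.41 ± 0.18). The 2 Dux KD libraries lay far apart for Zscan4c, which had 8.99 and 7.2 in Usp17le OE-Dux KD, against 0.0870 and 1.06 in Dux KD (4.13 ± 0.78). Zscan4b was the weakest of the 5, at 0.221 and 0.432 against 0 and 0.0837, from 8 and 17 reads against 0 and 4 (1.61 ± 0.47, adjusted p = 0.0228). This call was lost in a fit of the compared groups alone, with a pseudocount of 1 (0.34) and without the second Usp17le OE-Dux KD library (1.24) or the first Dux KD library (1.17).

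The windows of 250 bases before to 50 after the start of Zscan4f (chr7:11397665-11397964, plus strand) and Zscan4b (chr7:10905001-10905300, minus strand) are shown because they are nearly the same, while the 2 genes reached unequal levels in Usp17le OE-Dux KD. Their levels were unequal in every group, with means of 2.45 and 0.360 scaled TPM in WT and 56.9 and 4.97 in Usp17le OE, so this is no trait of the comparison. Only uniquely mapped reads were counted, so the levels of such similar copies can also depend on how much sequence is unique to each. How far the unequal levels rest on this was not tested. The windows themselves are compared here. They match at 287 of 300 positions, and capitals mark the 13 bases that differ (RefSeq, GRCm38.p6).
Zscan4f: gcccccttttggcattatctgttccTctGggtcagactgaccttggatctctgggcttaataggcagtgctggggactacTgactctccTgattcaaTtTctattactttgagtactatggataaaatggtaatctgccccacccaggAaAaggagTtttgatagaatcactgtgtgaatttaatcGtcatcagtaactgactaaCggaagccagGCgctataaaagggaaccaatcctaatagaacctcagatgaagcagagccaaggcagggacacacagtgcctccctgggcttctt
Zscan4b: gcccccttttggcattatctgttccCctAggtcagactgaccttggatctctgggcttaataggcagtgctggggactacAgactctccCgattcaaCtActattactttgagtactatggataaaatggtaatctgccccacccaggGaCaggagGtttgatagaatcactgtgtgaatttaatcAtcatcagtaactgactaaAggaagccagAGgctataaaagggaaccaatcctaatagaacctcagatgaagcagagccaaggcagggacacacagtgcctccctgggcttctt
The letters TGATTCA open the motif known for DUX, and one of the 13 differences falls on them. On either strand they were found in the windows of Zscan4c, Zscan4d and Zscan4f and not in that of Zscan4b. They were in 4 of the 18 tested 2C genes that have a window in the RefSeq set (22.2%), against 188 of all 10886 tested genes with a window (1.73%). The 4 are these 3 Zscan4 copies, which share most of their sequence and are not independent, and AF067061. A match is a description of letters, and the windows cover only this stretch.

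Other 2C genes rose to a similar degree. Tcstv3, a 2-cell-stage gene linked to telomere length, had 4.63 and 5.99 scaled TPM in Usp17le OE-Dux KD, against 0.226 and 0.251 in Dux KD (3.99 ± 0.16, adjusted p = 2.45e-07). Trim43a, a tripartite motif gene, had 7.25 and 9.03 against 0.378 and 0.640 (3.78 ± 0.22, adjusted p = 2.07e-06). Tdpoz4, which encodes a TRAF- and POZ-domain protein, had 3.39 and 2.36 against 0 and 0.165 (4.17 ± 0.84), and Sp110, a nuclear body gene, 1.64 and 1.70 against 0.0502 and 0.0372 (3.62 ± 0.34). Arg2, the mitochondrial arginase, had 2.39 and 3.87 against 0.419 and 0.259 (2.86 ± 0.26), and Tmem92, a membrane protein gene, 4.80 and 5.32 against 0.725 and 0.436 (2.95 ± 0.20). Among 2C entries without a descriptive name, Gm13119 rose by 4.23 ± 0.23, Gm8300 by 4.01 ± 0.16, Gm2016 by 3.83 ± 0.13, Gm5039 by 3.79 ± 0.14 and Gm5662 by 3.30 ± 0.13.

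In 10 of the 42 members both Dux KD libraries were at 0 reads, and 6 of these were called higher. Against a floor of 3 reads per library Zfp352, a zinc finger gene, was at least 23.1-fold higher, with 1.97 and 0.670 scaled TPM in Usp17le OE-Dux KD. On the same floor Gm12794 was at least 13.4-fold and AF067063 at least 10.6-fold higher. The list's median stayed at 3.22 with such genes set to their bound. Pramef12, a PRAME-family gene expressed in every library, had 52.6 and 52.0 in Usp17le OE-Dux KD against 38.7 and 43.4 in Dux KD (0.35 ± 0.08, adjusted p = 0.00608), a call lost without the first Dux KD library (0.27). Nelfa, a subunit of the negative elongation factor, was the only member tested with both Usp17le OE-Dux KD libraries below both Dux KD libraries, at 80.6 and 84.3 against 86.3 and 94.2 (-0.13 ± 0.05, adjusted p = 0.0605), and it was not called. It was called lower by voom on the recovered reads (-0.13) and without the first Dux KD library (-0.19).

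How the Usp17le effect under the hairpin compared with the effect without it was tested as a difference of effects, (Usp17le OE-Dux KD minus Dux KD) minus (Usp17le OE minus WT). This difference holds transfection and selection on the side of WT. It was called for 6546 genes (44.6%), positive for 2958 (20.1%) and negative for 3588 (24.4%). Among the 42 2C genes it was positive for 2, negative for 10 and not called for 30, with a median of -0.63. Usp17le itself gave -0.38 ± 0.56 (adjusted p = 0.615), Dux -1.03 ± 0.73 (0.279) and Zscan4d -0.57 ± 0.25 (0.0939), none of them called. The 2 positive members were Tcstv3 (1.40 ± 0.23, adjusted p = 0.000799) and Pramef12 (0.53 ± 0.11, 0.00318). Trim43a had the most negative value, -3.13 ± 0.31 (adjusted p = 3.68e-05): it stood at 67.1 and 70.4 scaled TPM in Usp17le OE against 0.420 and 0.529 in WT. Zscan4f gave -1.07 ± 0.25 (0.00592), Zscan4b -1.90 ± 0.67 (0.0407) and Arg2 -1.71 ± 0.37 (0.00402), so the fitted log2 rise of these genes was smaller with the hairpin than without. The added 0.1 shrinks rises from low levels, more so from Dux KD than from WT. The median 2C gene stood at 0.0913 and 0.189 scaled TPM in Dux KD, against 0.489 and 0.935 in WT. How far the negative differences rest on this was not tested.

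**Figure D2:**
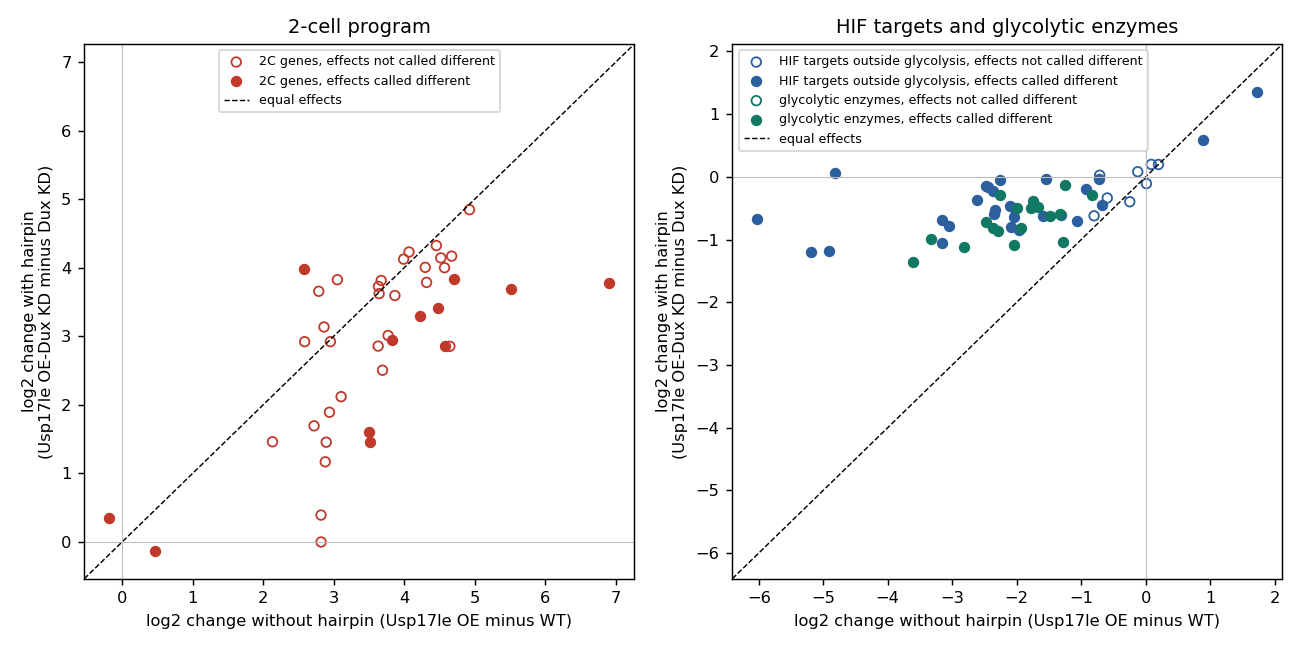
Log2 change with the hairpin (Usp17le OE-Dux KD minus Dux KD, vertical) against log2 change without it (Usp17le OE minus WT, horizontal) for the members of 3 lists, filled where the difference of the 2 effects was called, with a dashed line where both are equal. Of the 12 filled 2C genes 10 lie below the line and 2 above it, and all 18 glycolytic enzymes lie above it at negative values on both axes.

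Hypoxia-inducible factors (HIFs) are transcription factors that raise glucose uptake, glycolysis and related genes when oxygen is short. Their targets and the glycolytic enzymes were lower in Usp17le OE-Dux KD than in Dux KD. Of 18 glycolytic genes tested, 17 were called lower (94.4%, against 23.1% of all genes tested), with a median of -0.67. By limma 0 were higher (0 at an unadjusted p under 0.05 and 0 by voom), against 14% of all genes tested. Of 36 HIF targets outside glycolysis 21 were lower (58.3%) and 3 higher (8.33%), with a median of -0.42. Without scaling these counts were 15 lower and 0 higher, and 18 lower and 6 higher. Slc2a1, the main glucose transporter, had 459 and 457 scaled TPM in Usp17le OE-Dux KD, against 808 and 845 in Dux KD (-0.85 ± 0.03, adjusted p = 2.29e-07). Aldoc, an aldolase, had 33.4 and 36.9 against 88.7 and 92.5 (-1.36 ± 0.06), Tpi1, triosephosphate isomerase, 396 and 373 against 820.3 and 853 (-1.12 ± 0.05), and Ldhb, a lactate dehydrogenase subunit, 332 and 328 against 687 and 666 (-1.04 ± 0.03). Slc16a3, which exports lactate, had 106 and 106 against 212 and 209.7 (-0.99 ± 0.04). The groups did not overlap in any of these, and over all genes tested 37.9% were lower without overlap.

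Outside glycolysis, Bnip3, a mitophagy receptor, had 113 and 115 scaled TPM in Usp17le OE-Dux KD against 241 and 232 in Dux KD (-1.05 ± 0.03, adjusted p = 1.02e-07). Bhlhe40, a transcriptional repressor, had 59.5 and 59.4 against 133 and 136 (-1.18 ± 0.10), and Ndufa4l2, a mitochondrial protein gene, 32.5 and 41.6 against 86.1 and 82.8 (-1.20 ± 0.16). Egln3, an oxygen-sensing hydroxylase that marks HIFs for destruction, had 34.7 and 33.3 against 57.8 and 59.8 (-0.79 ± 0.07). The 3 members that rose were Cited2, which competes with HIFs for their coactivator, at 50.4 and 50.9 against 20.4 and 19 (1.36 ± 0.09), Ak4, an adenylate kinase (0.60 ± 0.04), and Kdm3a, a histone demethylase (0.20 ± 0.05). The call of Kdm3a was lost without either Usp17le OE-Dux KD library (0.21 and 0.19) and without the first Dux KD library (0.17). Hif1a, an oxygen-regulated subunit itself, had 44.8 and 44.3 against 40.3 and 41.7 (0.12 ± 0.05, adjusted p = 0.0918) and was not called. Epas1, which encodes another such subunit, had a log2 change of 0.56. The well-known targets Ndrg1 and Adm, which encodes adrenomedullin, were not called either, Ndrg1 at 46.3 and 48.8 against 45.6 and 46.0 (0.05 ± 0.06, adjusted p = 0.527) and Adm at 10.7 and 8.45 against 13.8 and 16.6 (-0.67 ± 0.58, adjusted p = 0.421). Adm was called lower in a fit of the compared groups alone (-0.67) and by voom on recovered reads (-0.70), and Ndrg1 higher on TPM as deposited (0.22).

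**Figure D3:**
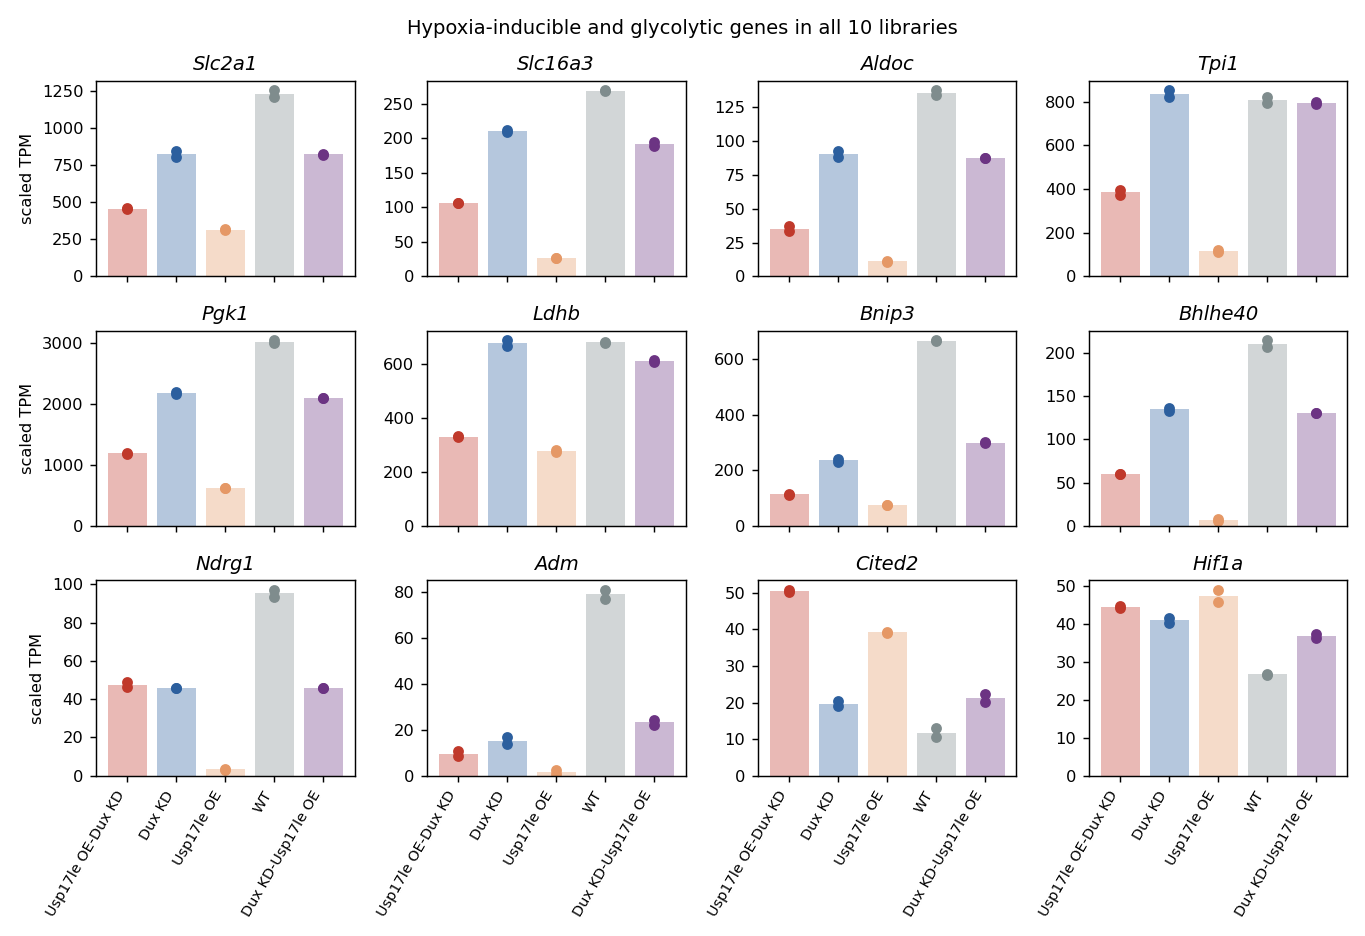
Scaled TPM of Hif1a and 11 hypoxia-inducible or glycolytic genes (vertical axes) by group, 10 libraries in all, with 1 point for each library and bars at the mean of 2, starting at 0. In 9 of the panels Usp17le OE-Dux KD lies below Dux KD, while Ndrg1 and Hif1a are close and Cited2 is higher.

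The fall in these genes was smaller than the one without the hairpin. Of the 18 glycolytic genes all 18 had a called positive difference of effects (median 1.33), as did 26 of the 36 other HIF targets, with 2 called negative (median 1.36). Without the hairpin the median change was -1.97 for the glycolytic genes and -2.0 for the other HIF targets (Usp17le OE minus WT, from the same fit). Ndrg1 gave the clearest case, at 3.47 and 3.13 scaled TPM in Usp17le OE against 97.3 and 93.5 in WT, a difference of effects of 4.87 ± 0.09 (adjusted p = 1.41e-09). Adm had 0.518 and 2.28 against 80.9 and 76.8 (5.36 ± 0.82, 0.00275). The 2 effects start from different levels: Slc2a1, for one, had 808 and 845 scaled TPM in Dux KD and 1257 and 1212 in WT.

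The letters ACGTG, the core of the HIF response element, were found on either strand in the RefSeq start windows of 20 of 28 other HIF targets (71.4%) and 11 of 18 glycolytic genes (61.1%), against 28.7% of the 10886 tested genes with a window. Bnip3 (chr7:138909457-138909756, minus strand) and Aldoc (chr11:78322823-78323122, plus strand) are printed as the deepest fall in each list among members whose window holds the letters, which are in capitals. In Bnip3 the 2 matches overlap as a palindrome, and Aldoc has 1.
Bnip3: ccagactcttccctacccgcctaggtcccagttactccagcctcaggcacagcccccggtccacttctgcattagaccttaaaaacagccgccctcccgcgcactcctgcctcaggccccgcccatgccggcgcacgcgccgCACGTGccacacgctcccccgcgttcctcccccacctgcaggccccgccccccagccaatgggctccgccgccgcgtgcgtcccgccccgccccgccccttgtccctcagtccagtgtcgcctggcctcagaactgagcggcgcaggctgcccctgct
Aldoc: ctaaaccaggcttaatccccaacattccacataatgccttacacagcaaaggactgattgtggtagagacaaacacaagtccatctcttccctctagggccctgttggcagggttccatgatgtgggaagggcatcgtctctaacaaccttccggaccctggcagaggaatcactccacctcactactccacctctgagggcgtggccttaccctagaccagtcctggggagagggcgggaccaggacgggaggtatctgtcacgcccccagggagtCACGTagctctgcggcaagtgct
The other HIF targets were listed as known targets, so a high share with the letters follows from how the list was made. Cited2 and Ak4, which rose, are among the 20 with the letters, and Kdm3a, which also rose, is not. No binding was measured in these libraries.

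Cholesterol synthesis genes moved with the same sign. Of 24 tested, 20 were lower (83.3%, against 23.1% of all genes tested) and 1 higher (4.17%, against 14%). The median was -0.38, and 14 were lower on TPM as deposited. Pmvk, a kinase of the mevalonate route, had 30.9 and 26.7 scaled TPM in Usp17le OE-Dux KD against 61.5 and 56.0 in Dux KD (-1.03 ± 0.08, adjusted p = 1.22e-05), and Fdps, farnesyl diphosphate synthase, 168 and 170.4 against 247 and 263 (-0.59 ± 0.04). Hsd17b7, a late enzyme of the route, was the 1 that rose (0.39 ± 0.09), a call lost without the first Usp17le OE-Dux KD library (0.33). Of 40 genes of the integrated stress response 19 were lower (47.5%) and 7 higher (17.5%), with a median of -0.17, but 12 and 9 as deposited. Ddit3, a stress-induced transcription factor, had 36.2 and 35 against 57.7 and 58.0 (-0.70 ± 0.14), while Atf5 had 15.2 and 18.2 against 9.84 and 8.45 (0.86 ± 0.12). Oxidative phosphorylation genes were called lower in 29 of 80 and higher in 0 (1 at an unadjusted p under 0.05, 1 by voom) with a median of -0.08, and as deposited 13 were lower and 13 higher, so no direction is given for them. Ribosomal protein genes turned likewise, with 30 of 82 lower and 2 higher after scaling against 6 lower and 10 higher as deposited, and 17 and 18 lower without the first library of Usp17le OE-Dux KD and of Dux KD.

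**Figure D4:**
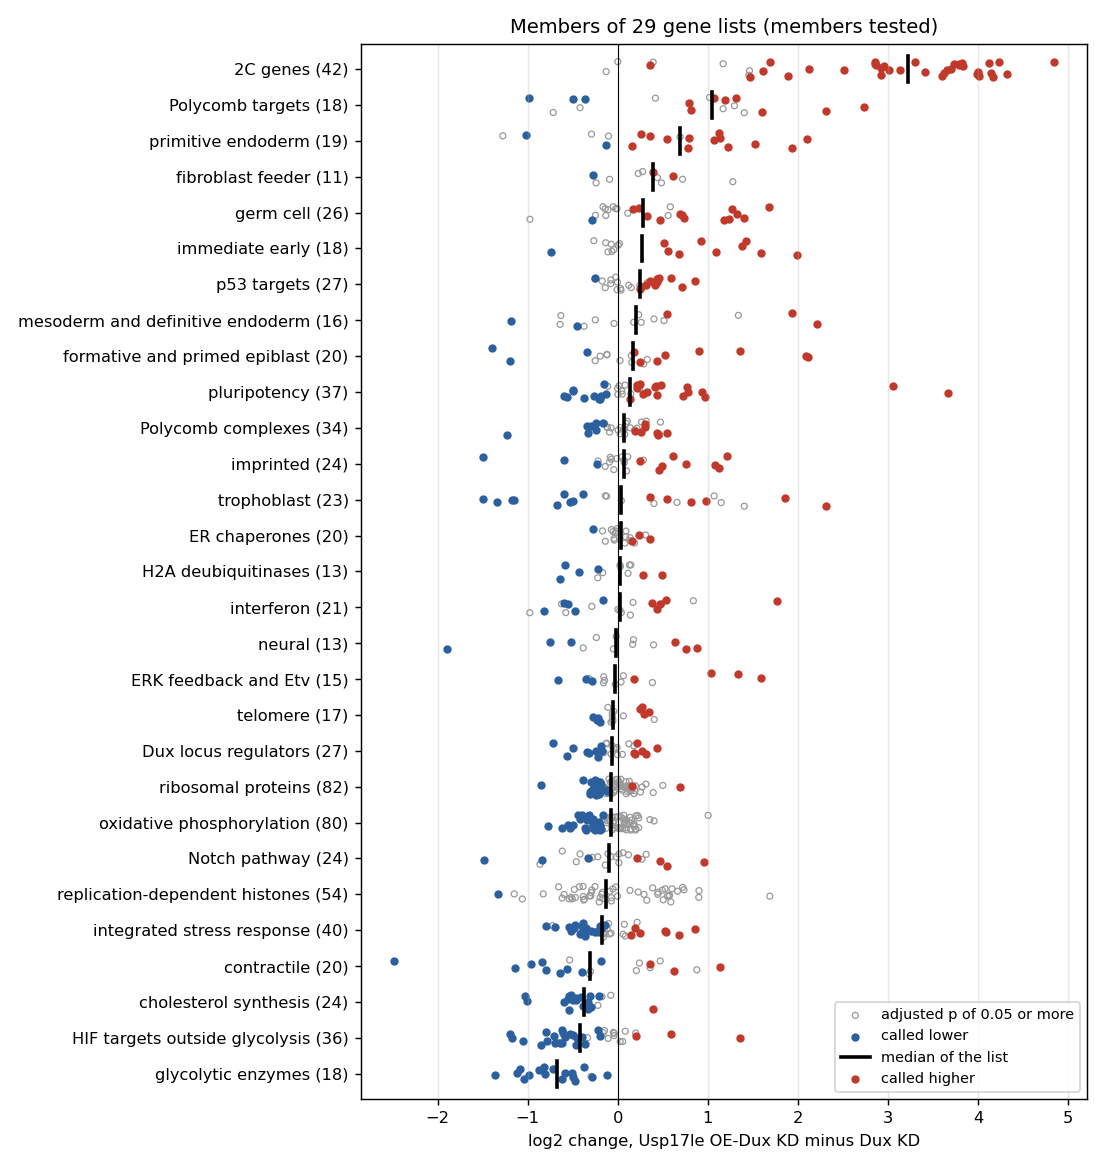
Log2 change (Usp17le OE-Dux KD minus Dux KD, horizontal) of each tested member of 29 gene lists, with the number tested in brackets, called members filled (red higher, blue lower), others open, and the list's median as a black line. The 2C genes lie at the top with a median of 3.22 and the glycolytic enzymes at the bottom with -0.67.

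Pluripotency genes moved both ways, with 17 of 37 higher (45.9%) and 11 lower (29.7%), against 14% and 23.1% of all genes tested. The median was 0.14, and 24 were higher and 5 lower as deposited. Nanog, a core pluripotency factor, had 794 and 769 scaled TPM in Usp17le OE-Dux KD, against 471 and 446 in Dux KD (0.77 ± 0.03, adjusted p = 4.26e-07). Tbx3, a T-box factor of naive cells, had 109 and 110.2 against 57.3 and 54.4 (0.97 ± 0.05), and the PRAME-like gene Pramel7 4.45 and 4.07 against 0.160 and 0.355 (3.66 ± 0.49). Lower were Utf1 (-0.60 ± 0.03), a chromatin-bound factor of undifferentiated cells, and Lin28a (-0.56 ± 0.04), an RNA-binding protein. Among genes of the formative and primed epiblast 8 of 20 were higher (40%, against 14% of all genes tested) and 3 lower (15%, against 23.1%), and 5 were higher without the second Usp17le OE-Dux KD library. Foxd3, a forkhead factor, had 20.5 and 22.7 against 4.78 and 5.03 (2.12 ± 0.15), and Nodal, a TGF-beta family ligand, 59.2 and 55.2 against 21.2 and 23.5 (1.35 ± 0.06). Lefty1, a secreted inhibitor of Nodal signalling, had 7.21 and 7.14 against 16.2 and 17.0 (-1.20 ± 0.23), and Fzd7, a Wnt receptor, 19.3 and 19.5 against 50.2 and 52.3 (-1.40 ± 0.05). Ligand and inhibitor thus moved in opposite directions.

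Of 19 primitive endoderm genes 13 were higher and 2 lower, with a median of 0.69, and 10 were higher in each fit that left out 1 library of the comparison. Their levels were mostly low. Sox17, an endoderm transcription factor, had 1.5 and 0.870 scaled TPM in Usp17le OE-Dux KD against 0.169 and 0.215 in Dux KD (2.10 ± 0.37, adjusted p = 0.00159), and Gata4, another, 3.19 and 2.99 against 1.31 and 1.54 (1.07 ± 0.24). The basement membrane collagens Col4a1 (47.6 and 47.6 against 21.7 and 21.8, 1.13 ± 0.06) and Col4a2 (19.8 and 18.5 against 8.61 and 8.67, 1.14 ± 0.09) were more abundant. Amn, a component of the endocytic cubilin receptor, was lower (-1.02 ± 0.19), as was Sparc, a matrix glycoprotein gene (-0.13 ± 0.03), which was not called without the first Usp17le OE-Dux KD library (-0.11) and stood at 0.039 on TPM as deposited. The summed level of the 5 primitive endoderm markers was 9.22 and 8.67 scaled TPM in Usp17le OE-Dux KD, against 3.71 and 4.32 in Dux KD, and the part of such cells in other results was not tested. Trophoblast genes went both ways, with 6 of 23 higher (26.1%, against 14% of all genes tested) and 9 lower (39.1%, against 23.1%). Gata3, a trophoblast factor, had 1.73 and 1.16 against 0.123 and 0.320 (2.31 ± 0.39), and Gata2 2.27 and 2.25 against 5.42 and 6.38 (-1.34 ± 0.15).

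Germ cell genes rose in 13 of 26 cases (50%, against 14% of all genes tested) and fell in 1 (3.85%, against 23.1%). Dazl, an RNA-binding protein of germ cells, had 149 and 149 scaled TPM in Usp17le OE-Dux KD against 61.2 and 62.6 in Dux KD (1.27 ± 0.05, adjusted p = 2.37e-07). Asz1, which acts in the piRNA pathway, had 16.1 and 12.3 against 4.72 and 3.96 (1.68 ± 0.17), and Taf7l, a germ-cell form of a general transcription factor, 8.80 and 7.55 against 3.07 and 2.96 (1.41 ± 0.16). Ddx4, the germ-cell helicase, was the 1 that fell (-0.28 ± 0.07), and its call was lost without scaling (-0.12) and without the second library of Usp17le OE-Dux KD (-0.25) or of Dux KD (-0.26). Of 18 immediate early genes 9 were higher (50%) and 1 (5.56%), the phosphatase gene Dusp1, was lower (-0.74 ± 0.07). Ctgf, a matricellular protein gene, had 21.3 and 24.4 against 6.68 and 4.78 (1.99 ± 0.15), its relative Cyr61 26.6 and 26.5 against 9.43 and 10.2 (1.42 ± 0.08), and Egr1, a zinc finger factor, 27.4 and 26.3 against 8.98 and 8.68 (1.59 ± 0.08). Of 27 p53 targets 12 rose (44.4%) and 1 fell (3.70%), and as deposited 17 were higher and 0 lower. Plk2, a polo-like kinase gene, was among those that rose (0.72 ± 0.05), and the 1 that fell was Xpc, a DNA damage sensor gene (-0.25 ± 0.08), whose call was lost without any 1 of the 4 libraries (-0.31 to -0.19).

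Polycomb genes were described because Usp17l enzymes are studied for their action on ubiquitinated H2A. Of 34 genes of the complexes 7 were higher and 7 lower (20.6% each, near the 14% and 23.1% of all genes tested), and 14 and 3 as deposited. Phf19, an accessory subunit of Polycomb repressive complex 2, had 4.71 and 4.44 scaled TPM in Usp17le OE-Dux KD against 10.9 and 10.8 in Dux KD (-1.23 ± 0.10, adjusted p = 1.99e-05), and Ezh2, its methyltransferase, 146 and 151 against 186 and 187 (-0.33 ± 0.04). Among 13 other H2A deubiquitinase genes 2 were higher, Mysm1 (0.49 ± 0.11) and Usp16 (0.28 ± 0.08), and 4 lower, with Brcc3 (-0.64 ± 0.10) and Usp3 (-0.59 ± 0.09) the lowest, and as deposited 6 were higher and 3 lower. These shares of 15.4% higher and 30.8% lower lie near those of all genes tested. Without the first Usp17le OE-Dux KD library Mysm1 (0.37) and Usp16 (0.19) were not called, nor was Usp16 without the first (0.32) or the second (0.24) Dux KD library. Of 48 developmental Polycomb targets 18 could be tested. Of these, 8 were higher (44.4%, against 14% of all genes tested) and 3 lower (16.7%, against 23.1%). At 0.5 scaled TPM or more were 10 of the 18 in both Dux KD libraries and 16 in both Usp17le OE-Dux KD libraries. Some thus passed the filter through libraries in which they are high, so the share called higher is partly set by the filter. With 1 library left out 5 or 6 were higher and 0 or 1 lower, 5 and 0 without the first Dux KD library or the second Usp17le OE-Dux KD library and 5 and 1 without the first Usp17le OE-Dux KD library. By voom and as deposited 11 were higher and 1 lower. Hoxb13 had 2.51 and 2.92 against 0.453 and 0.224 (2.73 ± 0.29, adjusted p = 8.04e-05) and Hoxb9 2.20 and 2.10 against 0.899 and 0.870 (1.19 ± 0.21). Of 27 genes that regulate the Dux locus 6 were higher (22.2%, against 14% of all genes tested) and 9 lower (33.3%, against 23.1%), with Dppa2, an activator of Dux, at 116 and 110.5 against 86.2 and 81.8 (0.43 ± 0.05) and Ehmt2, an H3K9 methyltransferase, at 49.7 and 49.7 against 81.7 and 82.6 (-0.72 ± 0.05). Without scaling 8 of them were higher and 4 lower.

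Of the 12 largest falls some lay outside these programs. They were taken from called genes whose groups did not overlap and whose higher group averaged at least 1 scaled TPM, Gm, LOC and Rik entries left out, so that 4 of the 7 called falls over 2 on the log2 scale (3 Rik entries and Mir7223) are not among them. Gna14, a G protein alpha subunit, had 1.27 and 1.16 scaled TPM in Usp17le OE-Dux KD against 7.58 and 7.50 in Dux KD (-2.54 ± 0.42, adjusted p = 0.00154). Acta2, smooth muscle actin, had 6.85 and 7.67 against 40.6 and 41.3 (-2.48 ± 0.10, 2.29e-07), and Rab3il1, an exchange factor for Rab GTPases, 3.75 and 2.50 against 16.1 and 14.6 (-2.29 ± 0.16). Contractile genes as a list gave 9 of 20 lower (45%, against 23.1% of all genes tested) and 3 higher (15%, against 14%), with a median of -0.31. Myl9, a myosin light chain, had 26.0 and 24.0 against 45.8 and 43.8 (-0.84 ± 0.08), and Cnn1, calponin, 3.90 and 3.23 against 7.68 and 6.43 (-0.97 ± 0.18). Pax6, a neural and eye homeobox factor, had 1.60 and 1.55 against 5.72 and 6.62 (-1.90 ± 0.20), and Slc11a1, a metal ion transporter, 8.57 and 7.91 against 25.3 and 27.3 (-1.66 ± 0.12). Phlda2, an imprinted gene that limits placental growth, had 50.5 and 52.2 against 143 and 147 (-1.49 ± 0.06), and Dll1, a Notch ligand, 0.903 and 0.702 against 2.30 and 2.53 (-1.48 ± 0.18). Jsrp1 (-1.78 ± 0.30), BC048679 (-1.75 ± 0.44), Asphd1 (-1.77 ± 0.41), Trim65 (-1.68 ± 0.41) and Rln3 (-1.49 ± 0.35), which encodes relaxin-3, completed the 12 largest falls under this rule. The last 4 lost their call without the first Usp17le OE-Dux KD library (-1.05, -1.33, -1.12 and -1.47, in the order named) and without the first Dux KD library (-1.63, -1.43, -1.53 and -1.36). Rln3 also lost it without the second Usp17le OE-Dux KD library (-1.52).

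With Gm, LOC and Rik entries left out (Gm13119, named above, would rank among them), and among genes whose groups did not overlap and whose higher group averaged at least 1 scaled TPM, 4 of the 12 largest rises were protein-coding 2C genes described above (Usp17lb, Usp17la, Tdpoz4 and Usp17le), and the other 8 were snoRNA or microRNA entries that rest on few reads. Snord49a, a C/D box snoRNA, had 13 and 15 reads in Usp17le OE-Dux KD against 1 and 0 in Dux KD, Snord12 8 and 16 against 1 and 0 and Snord100 7 and 16 against 1 and 0. Without the second Usp17le OE-Dux KD library Snord12 and Snord100 were not called (log2 change 4.35 and 4.14). Snord73a (4 and 3 reads in Usp17le OE-Dux KD), Snord1c (6 and 2), Snord35a (5 and 2), Mir6935 (2 and 4) and Mir1907 (6 and 2) had 0 reads in both Dux KD libraries, so that against a floor of 3 reads per library they were at least 1.26-fold, 1.47-fold, 1.28-fold, 1.06-fold and 1.47-fold higher, in that order. Mir6935, Snord1c, Snord35a and Snord73a were not called by voom on the recovered reads. The snoRNAs or microRNAs and the host genes around them cannot be told apart in these counts.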

How the data were processed

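Polyadenylated RNA was sequenced in 10 libraries (5 groups of 2), grouped by their labels. The deposited table holds TPM for 24370 gene symbols. Per the submitters' processing notes and the study's methods, the authors used Trim Galore for trimming, HISAT2 for alignment to mm10 and featureCounts for counting of unique reads without strand; versions are not given in the sources used here. 27 symbols had been turned into dates and are not named. Whole reads could be recovered from TPM and gene length for all values at a tolerance of 0.01, giving 32188285 to 50457228 reads a library. Precision is set by 2 libraries a group and, for genes with few reads, by counting error.

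Scaling factors were medians, over 14902 genes, of a library's ratios to the geometric mean of all libraries. Genes with at least 0.5 scaled TPM in at least 2 libraries were tested on log2(scaled TPM + 0.1), which understates changes of low genes, with limma 3.58.1 (R 4.3.3, statmod 1.5.0; trend and robust options, 1 mean per group over all 10 libraries, two-sided, Benjamini-Hochberg adjustment over all genes tested, called under 0.05). The contrasts were Usp17le OE-Dux KD minus Dux KD, and this effect minus that of Usp17le OE over WT. The fit was tested on simulated data. Tables were handled with Python 3.11.15, pandas 2.3.3 and numpy 2.4.6.

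Alternatives were a pseudocount of 1, no filter, a filter at 1 scaled TPM, TPM as deposited, a gene length correction, voom on the recovered reads, a fit of the compared groups alone, the replicate number as a block, limma without trend and robust options, and leaving out each library.

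Named genes were Usp17le, Dux and the 2C list, the 12 largest called rises and falls without overlap and with a group mean of at least 1 scaled TPM, up to 6 called members of each of 29 lists in its more frequent direction and 3 in the other, and the 6 largest called differences of effects each way; Gm, LOC and Rik entries were named only as list members. Genes given as uncalled, Epas1, Usp17l relatives and those for which a count of 5 or fewer is named were added after their values were seen. Members, lists and rules were chosen with earlier results of these data known. Lists are given by counts and medians, with no test of the list. Gene coordinates are those of the GENCODE annotation of mm10, and start windows are from RefSeq (GRCm38.p6).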

Additional observations from a re-analysis of the deposited data

Results flagged for a closer look

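The Usp17le effect with the hairpin differed from that without it for 6546 genes, by the difference of effects in limma, and the 6 largest differences each way under the naming rule are given here with Usp17le OE and WT as the groups without a hairpin. Adm (5.36 ± 0.82) and Ndrg1 (4.87 ± 0.09), both described above, were much lower in Usp17le OE than in WT and were not called between Usp17le OE-Dux KD and Dux KD. Prtn3, a neutrophil serine protease gene, gave 4.46 ± 0.81 (adjusted p = 0.00151), with 0.599 and 1.24 scaled TPM in Usp17le OE-Dux KD against 0.970 and 0.416 in Dux KD and 0.227 and 0 in Usp17le OE against 3.48 and 2.50 in WT. Ube2dnl1, a ubiquitin-conjugating enzyme-like gene, gave -4.56 ± 0.89 (adjusted p = 0.00394), with 1.37 and 4.44 scaled TPM in Usp17le OE-Dux KD against 1.47 and 2.57 in Dux KD, and with 11.9 and 13 in Usp17le OE against 0.160 and 0.581 in WT. For these 2 genes Usp17le OE-Dux KD and Dux KD overlapped.

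For the other differences the 4 compared libraries held few reads, and the groups without a hairpin enter as well. Snord38a gave 7.51 ± 1.26 from 2 and 1 reads in Usp17le OE-Dux KD against 0 and 0 in Dux KD, Mir7651 5.31 ± 1.24 from 1 and 0 against 0 and 0, and Snora30 5.14 ± 1.22 from 2 and 1 against 0 and 0. Among the negative ones Mir6948 gave -4.95 ± 1.66 from 1 and 0 against 1 and 0, Mir453 -4.55 ± 0.81 from 0 reads in all 4 libraries, Mir1934 -4.38 ± 1.16 from 1 and 1 against 3 and 2, Crct1 -4.28 ± 1.02 from 0 and 0 against 2 and 0 and Defb25 -4.04 ± 1.44 from 0 and 2 against 2 and 0. Without the hairpin Defb25 had 6.39 and 9.01 scaled TPM in Usp17le OE against 0.405 and 0.368 in WT, and Crct1 1.46 and 0.920 against 0 and 0. Snord38a had 0.933 and 0 in Usp17le OE against 4.02 and 5.48 in WT, and Snora30 0 and 0.474 against 0.554 and 2.02. By voom on the recovered reads the calls of Mir7651, Snora30, Mir6948, Mir453, Mir1934 and Defb25 were lost.

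In libraries outside the comparison, Usp17le was above Dux KD where the hairpin came first and the plasmid second: the Dux KD-Usp17le OE libraries had 0.947 and 1.63 scaled TPM, against 0.447 and 0.389 in Dux KD and 9.11 and 8.98 in Usp17le OE-Dux KD. They lay within the range of the untransfected WT libraries (2.20 and 0.801), so their Usp17le level does not separate them from cells without the plasmid. Why the order of transfections goes with different Usp17le levels was not tested.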

How the results depend on the processing

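The count of 5456 changed genes stayed within 1.5 times under every alternative run, from 4949 without trend and robust options to 6534 by voom on the recovered reads, and from 3779 to 4215 when 1 of the 4 compared libraries was left out. Its split did not. On TPM as deposited 3617 genes were higher and 1411 lower, and without 1 library 1235 to 1492 were higher and 2544 to 2728 lower. Sparc, at -0.13 ± 0.03 after scaling, stood at 0.039 on TPM as deposited, and the cause was not tested. The 6546 called differences of effects stayed within 1.5 times under all alternatives, from 5622 to 6221 with 1 library left out. Of the genes named by the rule, 20 lost their call on TPM as deposited, and so did Sparc, whose sign turned. By voom 17 lost their call, and more did so without 1 of the compared libraries. The latter are fits with a lone library assumed to vary like the other groups. With the replicate number as a block 5354 genes changed (1998 higher and 3356 lower) and 6477 differences of effects were called, and 7 named genes lost their call. Same-numbered libraries did not deviate together (correlations of -0.049 to 0.040), so the numbers are not read as pairs. Low counts limit Dux, Zscan4b and the snoRNA and microRNA entries, and 2 libraries a group limit all p-values.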

Other observations

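Further lists showed calls in both directions. Of 24 imprinted genes 8 were higher (33.3%, against 14% of all genes tested) and 3 lower (12.5%, against 23.1%) in Usp17le OE-Dux KD than in Dux KD. The higher count was 5 without either Usp17le OE-Dux KD library and 11 on TPM as deposited. Peg10, a retrotransposon-derived placental gene (1.21 ± 0.07), Plagl1, a zinc finger factor (1.12 ± 0.20), and H19, a maternally expressed RNA (0.76 ± 0.10), rose, while Phlda2 fell. Of 15 genes of ERK feedback and signalling 4 were higher (26.7%) and 3 lower (20%), with a median of -0.03 against -0.02 over all genes tested. Among them were Phlda1 at 1.33 ± 0.18, Myc, the growth-promoting factor, at 1.03 ± 0.11 and Etv4, an ETS factor downstream of ERK, at -0.67 ± 0.05. Of 21 interferon-linked genes 5 were higher and 5 lower (23.8% each), with 2 higher without the first Dux KD library and 3 without the second Usp17le OE-Dux KD library. The chemokine Cxcl10 rose (1.77 ± 0.25), as did B2m, the light chain of class I molecules (0.47 ± 0.07), while the class I heavy chain H2-K1 (-0.60 ± 0.07) and the membrane protein gene Ifitm1 (-0.82 ± 0.08) fell. Of 24 Notch pathway genes 4 were higher (16.7%) and 3 lower (12.5%), near or below the shares of all genes tested. Without the first Usp17le OE-Dux KD library 1 was higher, and 7 were on TPM as deposited. The list included the receptor Notch3 at 0.54 ± 0.10 and Dtx1, a regulator of Notch, at -0.84 ± 0.12.

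In other lineage lists 3 were higher (18.8%) and 2 lower (12.5%) of 16 mesoderm and definitive endoderm genes, 3 and 3 of 13 neural genes (23.1% each) and 2 (18.2%) and 1 (9.09%) of 11 fibroblast genes. Over all genes tested the shares were 14% higher and 23.1% lower. For mesoderm and definitive endoderm 1 was higher without either Usp17le OE-Dux KD library, and 0 were lower without the second Usp17le OE-Dux KD or the first Dux KD library. Without the second library of either group 1 fibroblast gene was higher. Among neural genes Tubb3, a neuronal tubulin, rose (0.76 ± 0.07) and Pax6 fell. Of 17 telomere genes 4 were higher and 4 lower after scaling (1 higher without the second Usp17le OE-Dux KD library), against 6 and 0 on TPM as deposited, and of 20 endoplasmic reticulum chaperones 3 and 1, against 10 and 0, with Hspa5, the main one, at 0.36 ± 0.04. After scaling the shares were thus 23.5% each way for the telomere genes, and 15% higher and 5% lower for the chaperones. Of 54 replication-dependent histone genes 0 were higher by limma (2 at an unadjusted p under 0.05 and 0 by voom) and 1, Hist3h2a, was lower (-1.34 ± 0.26). Without the first Dux KD library 2 were higher, and 3 were lower without the second and 2 without the first Usp17le OE-Dux KD library.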
